A study of Mus musculus with 31 samples.

Results

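Kit, Kitl, Cxcl12 and Cxcr4 are 4 of the 18194 genes measured on 31 arrays of whole fetal mouse gonads, and 10 of 34958 probe sets with a single gene symbol were annotated to them. Each of the 10 probe sets carried exactly 1 of the 4 symbols in the platform annotation: 2 for Kit, 4 for Kitl, 3 for Cxcl12 and 1 for Cxcr4. The brightest probe set of a gene, by its mean over all 31 arrays, is called its main one. The groups were Wv/Wv testes with 3 arrays at 12 days post coitum (dpc), 2 at 14 dpc and 3 at 16 dpc, and wild-type testes with 1, 3 and 3 arrays at the same ages. Wv/Wv ovaries had 2, 3 and 3 arrays and wild-type ovaries 2, 3 and 3 arrays at those ages. Wv is a missense allele in the kinase domain of Kit, carried by every cell of a homozygous embryo, so it alters the receptor's activity and not only germ cells. Each array held RNA of gonads in which germ cells and somatic cells were not separated. Fewer cells of a type and less RNA per cell therefore cannot be told apart. The labels do not say how many animals went into a sample, so the p-values reflect variation among these samples alone, part of which may be technical.

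Kit is the tyrosine kinase receptor for stem cell factor, which Kitl encodes, and germ cells need this pair to survive, divide and migrate to the gonad. In the fetal gonad Kit is known from germ cells, and the ligand from the somatic cells around them. Cxcl12 encodes a chemokine made along the route and in the gonadal ridge, and Cxcr4 encodes the receptor through which primordial germ cells respond to it. Kit also marks mast cells and melanocytes outside the gonad, and Cxcr4 is also used by endothelial and blood cells.

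All values are RMA signals on the log2 scale, as deposited, and a difference of 1 is a doubling of signal. Of the 31 arrays, 10 had a narrow spread of log2 signal over all probe sets (SD 1.77 to 2.18) and 21 a wide one (SD 2.33 to 2.39). On the narrow-spread arrays the 3′ probe set of Gapdh exceeded the 5′ probe set by 0.70 ± 0.19 (SD, n = 10), against 2.01 ± 0.19 (SD, n = 21) on the wide-spread arrays. These are technical classes read from the arrays, and the labels do not mention them. The narrow-spread arrays were replicate 1 of the Wv/Wv and of the wild-type testes at 16 dpc, replicate 2 of the Wv/Wv testes at 14 dpc, replicates 2 and 3 of the Wv/Wv ovaries and replicate 1 of the wild-type ovaries at 14 dpc, and replicate 2 of the Wv/Wv ovaries and all 3 wild-type ovaries at 16 dpc. Within groups, 72.2% of the 34958 probe sets differed between the classes in limma at a Benjamini-Hochberg adjusted p below 0.05. Replicate 1 of the 16 dpc wild-type testes, the array of lowest SD, was left out of that fit and of every value given below with class as a term.

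The germ cell markers checked the genotype labels. Dazl, an RNA-binding protein of germ cells, ranged over 3.23 to 5.62 on the 8 arrays of Wv/Wv testes and 8.24 to 11.79 on the 7 arrays of wild-type testes. In ovaries Dazl ranged over 3.49 to 7.54 on 8 Wv/Wv arrays and 8.30 to 12.80 on 8 wild-type arrays. The genotypes did not overlap in either gonad, and the highest Wv/Wv value belonged to replicate 1 of the 14 dpc ovaries. Over all probe sets and arrays, 40% of the values lay below 5.39, which is used below as the limit of low signal. The Wv allele changes a residue of the Kit protein and leaves its RNA to be measured, so the Kit signal itself does not check the labels.

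**Figure D1:**
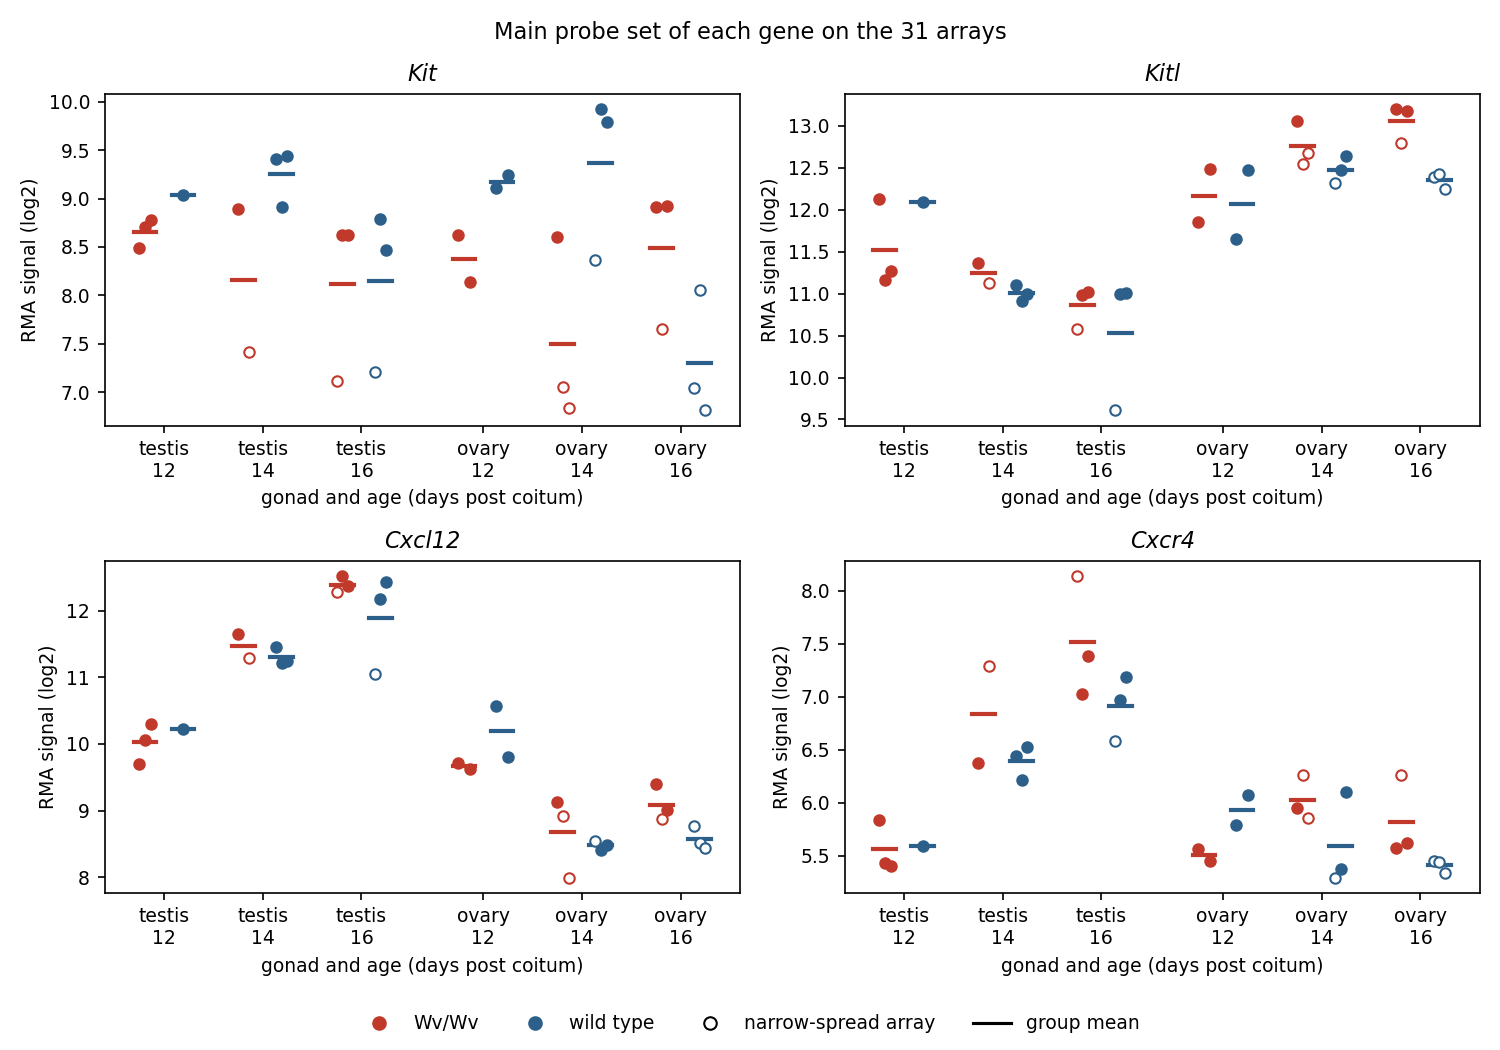
Log2 RMA signal of the main probe set of each gene (y axes) on each of the 31 arrays, by gonad and age in days post coitum (x axes), with Wv/Wv in red left of wild type in blue; bars are group means and open circles narrow-spread arrays. Cxcl12 of 14 and 16 dpc testes lies between 11.06 and 12.52, above every ovary, whereas in each of the 6 groups that hold both array classes every narrow-spread Kit value lies below every wide-spread one.

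Kit, the receptor, kept a signal above the limit of low signal in every group, also where Dazl was at its lowest. At 14 dpc the main Kit probe set read 8.60, 7.05 and 6.83 in Wv/Wv ovaries, against 8.37, 9.93 and 9.79 in wild-type ovaries. A single Wv/Wv array overlapped the wild-type range, and the lowest wild-type array was the narrow-spread one. Kit fell in Wv/Wv ovaries at 14 dpc, by 1.87 ± 0.54 on the log2 scale (SE; limma, adjusted p = 0.0491), which was the single call for any of the 4 genes in 6 genotype comparisons. In that comparison 4.37% of all genes were called. With array class as a term the difference was -1.37 ± 0.22 (limma, adjusted p = 8.31e-05), where 20.6% of all genes were called. Within wide-spread arrays the difference was -1.26 and within narrow-spread arrays -1.43, each with a single array in 1 of the groups. The call was lost when replicate 2 or 3 of the wild-type ovaries, or replicate 2 or 3 of the Wv/Wv ovaries, was left out, with differences between -1.53 and -1.65. It was also lost with the compared arrays alone (adjusted p = 0.223), with the replicate number as a block (adjusted p = 0.0705) and with p adjusted over every probe set (adjusted p = 0.0538).

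At 16 dpc Kit read 8.91, 7.65 and 8.92 in Wv/Wv ovaries, against 7.05, 8.06 and 6.81 in wild-type ovaries. The difference of 1.19 ± 0.54 was not called (limma, adjusted p = 0.187, where 3.74% of genes were called). All 3 wild-type arrays and 1 Wv/Wv array were narrow-spread ones, and the difference was 0.20 ± 0.24 with the class term and 0.34 among narrow-spread arrays. The positive sign of this difference therefore stands beside a class difference of Kit of -1.48, given below, and their parts were not tested separately. At 12 dpc Kit read 8.62 and 8.14 in Wv/Wv ovaries, against 9.10 and 9.24 in wild-type ovaries, all on wide-spread arrays. The 12 dpc groups did not overlap, but the difference of -0.79 ± 0.66 was not called in a comparison that called 0.0934% of genes.

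In testes the Kit ranges of the genotypes did not overlap at 12 dpc, with a single wild-type array, or at 14 dpc, and overlapped at 16 dpc. At 12 dpc the Wv/Wv testes read 8.49, 8.71 and 8.78, and the wild-type testis 9.03. At 14 dpc the Wv/Wv testes read 8.89 and 7.42, against 9.41, 8.92 and 9.44 in wild-type testes. At 16 dpc the Wv/Wv testes read 7.12, 8.62 and 8.63, against 7.21, 8.79 and 8.47 in wild-type testes. At 16 dpc the lowest array of each genotype was its narrow-spread one, and the other arrays lay within a range of 8.47 to 8.79. None of the differences was called by limma (-0.37 ± 0.76, -1.10 ± 0.60 and -0.033 ± 0.54 at 12, 14 and 16 dpc), in comparisons that called 0.033%, 0.594% and 0.484% of genes. The 14 dpc difference was -0.36 ± 0.25 with the class term and -0.37 among wide-spread arrays.

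The share of Kit signal that was left in Wv/Wv gonads was larger than that of the germ cell markers in each gonad and age. Of 16 Wv/Wv arrays, 13 read below the limit of low signal for Dazl and 13 for Ddx4, the Vasa helicase of germ cells. The shares of these markers are therefore given as bounds, with each Wv/Wv value below that limit raised to it. In Wv/Wv ovaries Kit stood at 57.7% of wild type at 12 dpc, 27.4% at 14 dpc and 228% at 16 dpc, whereas Dazl stood at most at 11.1%, 1.17% and 1.10%. With the class term the Kit shares were 57.7%, 38.6% and 115%. In Wv/Wv testes Kit stood at 77.2%, 46.7% and 97.8% of wild type at 12, 14 and 16 dpc, and at 77.2%, 77.9% and 99.2% with the class term. Dazl stood at most at 13.8%, 1.49% and 6.59% in these testes, and the bounds of Ddx4 over the 6 comparisons ran from 2.28% to 13.3%.

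A part of the Kit signal that went with the germ cell markers, called the germ cell part, was computed from these shares. It assumes that signal is linear in RNA and that each remaining cell has the same amount of Kit RNA in both genotypes, which the arrays do not test. It also assumes that germ cells keep the same Dazl and Ddx4 RNA per cell, and that no other cells with Kit are fewer. Some mast cell markers and erythroid markers, given below, were lower in Wv/Wv ovaries, and the part of mast cells and blood cells was not tested. The germ cell part is the loss of Kit over the mean loss of Dazl and Ddx4, taken here from their signals as deposited. With the signals of both markers raised to the limit of low signal, the part came to 48.1% rather than 44.0% in 12 dpc ovaries and moved by less elsewhere. The part came to 73.1% in 14 dpc ovaries (62.1% with the class term), with a range of 66.3% to 81.6% over single arrays left out. In 12 dpc ovaries, where the Kit difference was not called, it came to 44.0%, with a span of 9.25% to 66.0% at 1 SE of the Kit difference. In 12 dpc testes it came to 24.4%, and at 1 SE of the Kit difference it spanned -33.2% to 58.4%, so no part was resolved there. In 14 dpc testes it came to 54.0%, with a span of 29.5% to 70.1% at 1 SE, but to 22.6% with the class term and to 22.9% without replicate 2 of the Wv/Wv testes, the narrow-spread array, and 72.4% without replicate 1. In 16 dpc testes it came to 2.31%, with a span of -43.3% to 33.7% at 1 SE. Without replicate 1 of the wild-type testes, the narrow-spread array, it came to 30.2%, with housekeeping centring to 27.1% and with cyclic loess to 19.3%. The Kit share in 16 dpc testes ran from 70.5% to 138% over single arrays left out, so no part was resolved there either. No part was formed for 16 dpc ovaries, where the Kit signal of Wv/Wv exceeded that of wild type.

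**Figure D2:**
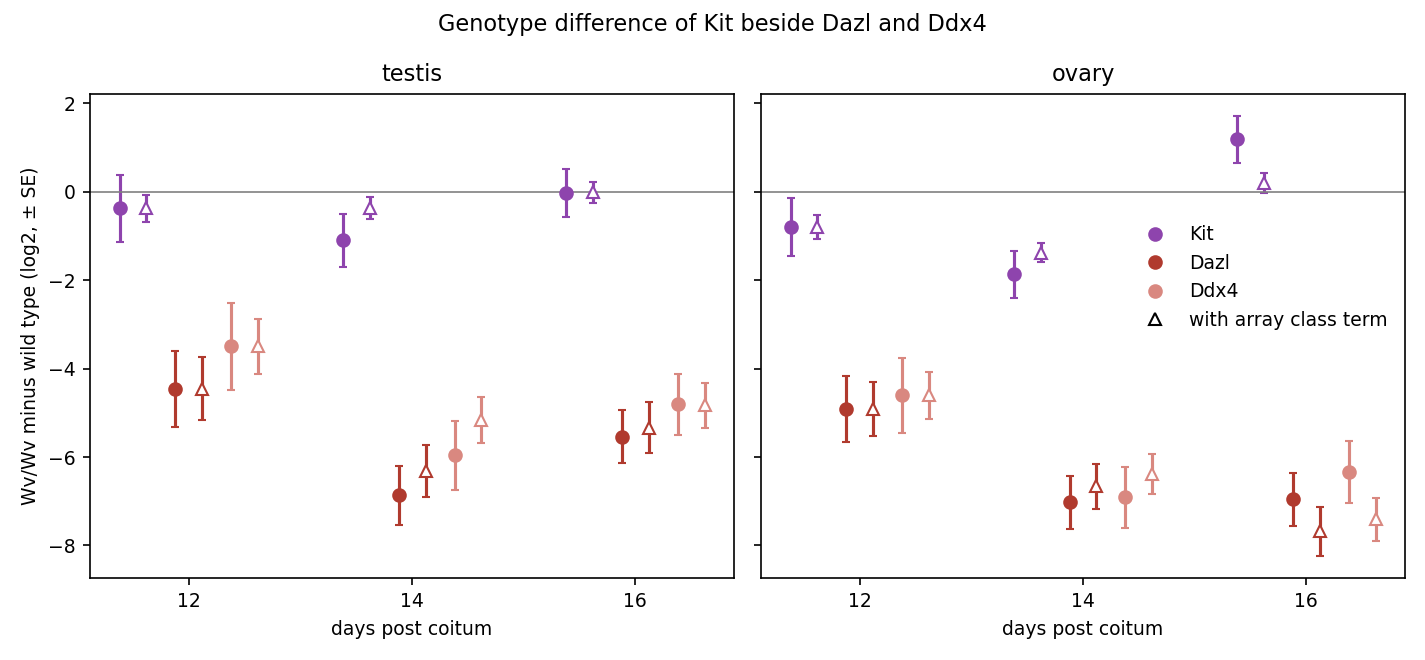
Wv/Wv minus wild-type log2 difference ± SE (y axis) of Kit, Dazl and Ddx4 by days post coitum (x axes) in testes and ovaries; circles are the fit with 1 mean per group and open triangles the fit with array class as a term, all from signals as deposited. Dazl lies at -4.46 or below and Ddx4 at -3.49 or below at each age, while Kit lies between -1.87 and 1.19.

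Other cells that carry Kit were followed by their markers. Cpa3, a mast cell protease, read 4.29, 5.02 and 5.21 in 16 dpc Wv/Wv ovaries, against 7.73, 5.70 and 7.49 in wild-type ovaries (-2.14, limma adjusted p = 0.0123). Cma1, mast cell chymase, read 4.59, 5.60 and 4.84 in those Wv/Wv ovaries, against 8.33, 6.47 and 8.26 in wild-type ovaries (-2.68, adjusted p = 0.00467). Both were lower in every Wv/Wv array of that age than in every wild-type array. All 3 wild-type arrays and 1 Wv/Wv array were narrow-spread ones, and on the narrow-spread array of the 14 dpc wild-type ovaries Cma1 read 7.76, against 5.30 and 5.94 on the wide-spread ones. With the class term the 16 dpc differences were -1.76 ± 0.49 for Cpa3 (limma, adjusted p = 0.0156) and -2.01 ± 0.46 for Cma1 (adjusted p = 0.00456). Of 6 mast cell markers 3 fell at 16 dpc and 1 at 14 dpc in ovaries, where 3.74% and 4.37% of all genes were called, and with the class term 2 fell at each age, where 16.5% and 20.6% were called. Of the 6, 2 were below the limit of low signal on every array. The mean log2 level of the 6 ranged over 4.70 to 5.22 in 16 dpc Wv/Wv ovaries and 5.50 to 6.39 in wild-type ovaries. At 14 dpc it ranged over 4.67 to 5.58 in Wv/Wv ovaries and 5.08 to 6.17 in wild-type ovaries. None of 5 melanocyte markers was called in any of the 6 genotype comparisons (limma), where 0.033% to 4.37% of all genes were called. In each, 0 to 2 of the 5 had an unadjusted p below 0.05, and 1 of the 5 was below the limit of low signal on every array. With the class term Tyrp1 (0.69) and Sox10 (0.65) were higher in 14 dpc Wv/Wv ovaries, where 20.6% of all genes were called. The mean of the 5 in 16 dpc ovaries ranged over 5.04 to 6.00 in Wv/Wv and 5.91 to 6.10 in wild-type ovaries. The part of these cells in the Kit signal was not tested.

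The second Kit probe set, 1415900_a_at, was low throughout, at 5.06 to 6.32. In 14 dpc ovaries it read 5.09, 5.88 and 5.85 in Wv/Wv and 5.96, 5.93 and 6.17 in wild type, without overlap. Its difference there was -0.42 and was not called. In 16 dpc ovaries it read 5.45, 5.76 and 5.31 in Wv/Wv and 5.92, 6.11 and 6.05 in wild type, also without overlap. That direction was opposite to the main Kit probe set, which read higher in Wv/Wv on average at this age. All 3 wild-type arrays of that age were narrow-spread ones. Narrow-spread arrays exceeded wide-spread ones by 0.46 ± 0.10 on this probe set, and fell below them by 1.48 ± 0.15 on the main Kit probe set, 1452514_a_at (adjusted p = 9.56e-09). The 2 probe sets of this gene thus moved in opposite directions between the classes.

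**Figure D3:**
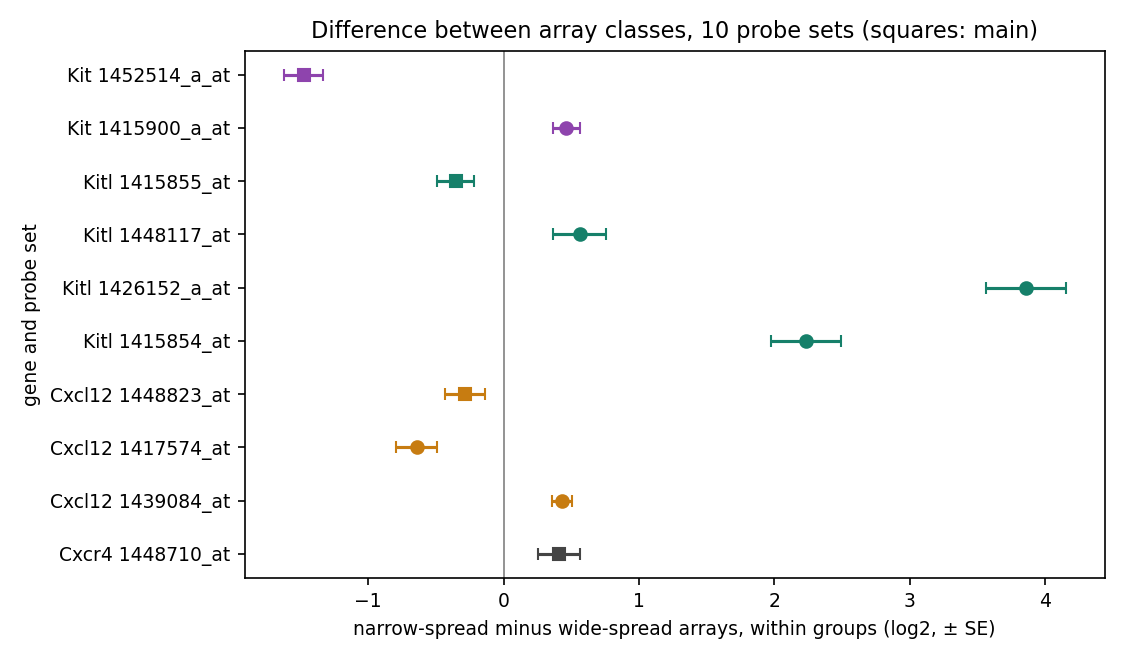
Narrow-spread minus wide-spread arrays within groups, in log2 ± SE (x axis), for the 10 probe sets of Kit, Kitl, Cxcl12 and Cxcr4 (y axis); squares are main probe sets. The values run from -1.48 for the main Kit probe set to 3.86 for the Kitl probe set 1426152_a_at.

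Kitl, the ligand, was lower in testes than in ovaries from 14 dpc on, in both genotypes. At 12 dpc the main probe set, 1415855_at, read 12.13, 11.16 and 11.28 in Wv/Wv testes and 11.86 and 12.48 in Wv/Wv ovaries. The wild-type testis read 12.09 at 12 dpc, and the wild-type ovaries 11.66 and 12.48. The gonads overlapped at this age, and neither difference was called (-0.65 ± 0.34 in Wv/Wv and 0.023 ± 0.46 in wild type).

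At 14 dpc Kitl read 11.37 and 11.13 in Wv/Wv testes, against 13.06, 12.55 and 12.68 in Wv/Wv ovaries. Wild-type testes of that age read 11.11, 10.91 and 11.00, against 12.32, 12.47 and 12.64 in wild-type ovaries. Every testis array lay below every ovary array. Kitl was 2.86-fold lower in Wv/Wv testes (-1.51 ± 0.34, limma adjusted p = 0.00978, 3.69% of genes called) and 2.77-fold lower in wild-type testes (-1.47 ± 0.31, adjusted p = 0.00299, 5.93% called). The Wv/Wv call was lost without either of the 2 testis arrays (-1.64 and -1.39) and with the compared arrays alone (adjusted p = 0.0995).

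At 16 dpc the values were 10.58, 10.98 and 11.02 in Wv/Wv testes, against 13.21, 12.79 and 13.18 in Wv/Wv ovaries. Wild-type testes read 9.61, 10.99 and 11.01, against 12.39, 12.43 and 12.25 in wild-type ovaries. The lowest value was that of replicate 1 of the wild-type testes, the array with the narrowest spread of all. The difference was 4.59-fold in Wv/Wv (-2.20 ± 0.31, adjusted p = 2.63e-05, 6.96% called) and 3.53-fold in wild type (-1.82 ± 0.31, adjusted p = 0.000293, 9.65% called), and the wild-type call was lost with the compared arrays alone (adjusted p = 0.110). Among narrow-spread arrays alone, the 16 dpc differences were -2.21 in Wv/Wv and -2.75 in wild type.

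Between genotypes Kitl was not called in any of the 6 comparisons (limma), and 1 of the 6 had an unadjusted p below 0.05. That one was the 16 dpc ovary, where all 3 Wv/Wv arrays exceeded all 3 wild-type arrays by a mean of 0.71 ± 0.31 (adjusted p = 0.175). With the class term the difference was 0.47 ± 0.22, and among narrow-spread arrays 0.44.

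The other Kitl probe sets differed in how they followed array class. Probe set 1426152_a_at read 9.86 to 11.55 on narrow-spread arrays of ovaries and 5.75 to 6.78 on wide-spread ones. In testes it read 7.29 to 7.69 on narrow-spread arrays. The class difference of this probe set was 3.86 ± 0.29 (adjusted p = 1.58e-10), that of 1415854_at 2.23 ± 0.26, that of 1448117_at 0.56 ± 0.20, and that of the main probe set -0.35 ± 0.14. A level of Kitl read from 1426152_a_at alone would thus set arrays of the same group far apart, as in 14 dpc Wv/Wv ovaries with 6.19, 10.62 and 11.30. Probe set 1448117_at, which moved less with class, read 8.58, 8.25 and 8.16 in 16 dpc Wv/Wv testes and 10.78, 11.42 and 10.63 in Wv/Wv ovaries. In wild type it read 7.77, 8.11 and 8.15 in 16 dpc testes and 10.96, 10.69 and 10.98 in ovaries. The direction between gonads was that of the main probe set.

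Cxcl12, the chemokine, was higher in testes than in ovaries from 14 dpc on, by a similar amount in both genotypes. At 12 dpc the main probe set, 1448823_at, read 9.71, 10.06 and 10.30 in Wv/Wv testes and 9.71 and 9.62 in Wv/Wv ovaries. The wild-type testis read 10.22 at 12 dpc and the wild-type ovaries 10.58 and 9.81. The gonads did not differ by more than the spread at 12 dpc (0.36 ± 0.33 in Wv/Wv and 0.031 ± 0.44 in wild type, neither called, with 0.374% and 0.253% of genes called).

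At 14 dpc Cxcl12 read 11.65 and 11.29 in Wv/Wv testes, against 9.13, 8.91 and 7.99 in Wv/Wv ovaries. Wild-type testes read 11.45, 11.21 and 11.25, against 8.55, 8.41 and 8.49 in wild-type ovaries. No testis array came near an ovary array. The difference was 6.94-fold in Wv/Wv (2.79 ± 0.33, limma adjusted p = 5.43e-06) and 7.07-fold in wild type (2.82 ± 0.30, adjusted p = 5.84e-07).

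At 16 dpc Cxcl12 read 12.28, 12.52 and 12.37 in Wv/Wv testes, against 9.39, 8.87 and 9.01 in Wv/Wv ovaries. Wild-type testes read 11.06, 12.18 and 12.43, against 8.77, 8.51 and 8.44 in wild-type ovaries. The low wild-type testis was again replicate 1. The difference was 9.86-fold in Wv/Wv (3.30 ± 0.30, adjusted p = 4.64e-08) and 9.98-fold in wild type (3.32 ± 0.30, adjusted p = 4.07e-08).

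Over time the 2 gonads moved apart. From 12 to 16 dpc Cxcl12 rose in Wv/Wv testes by 2.37 ± 0.30 (limma adjusted p = 7.67e-06, 5.39% of genes called) and in wild-type testes by 1.67 ± 0.42 (adjusted p = 0.0406, 1.65% called). Over the same ages it fell by 1.62 ± 0.33 in wild-type ovaries (adjusted p = 0.00342, 7.68% called), and the difference in Wv/Wv ovaries was -0.58 ± 0.33 (not called, 3.69% called). The 12 dpc wild-type ovaries were all on wide-spread arrays and those of 16 dpc all on narrow-spread ones, so array class changed along with age there. Narrow-spread minus wide-spread arrays within groups gave -0.29 ± 0.15 for the main Cxcl12 probe set (limma, adjusted p = 0.0823) and -0.64 ± 0.15 for 1417574_at. The wild-type testis comparison rests on a single 12 dpc array, taken to vary like the other groups. That call was lost with the replicate number as a block (1.72, adjusted p = 0.0655), with the compared arrays alone and without replicate 2 (1.52) or 3 (1.40) of the 16 dpc testes. The call in wild-type ovaries was lost without replicate 1 of the 12 dpc ovaries (-1.24). A test of whether the change over time itself differed between the gonads, chosen after the values were seen, was called for Cxcl12 in both genotypes and for none of the other 3 genes (limma, 1.09% of genes called in Wv/Wv and 0.627% in wild type). On the second probe set, 1417574_at, it was not called in either genotype (2.38 and 2.97), nor in wild type with the compared arrays alone. In that test Kitl and Cxcr4 had an unadjusted p below 0.05 in both genotypes and Kit in neither.

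The probe set 1417574_at read 11.27, 11.63 and 11.73 in 16 dpc Wv/Wv testes and 9.19, 8.48 and 8.82 in Wv/Wv ovaries. In wild type it read 9.58, 11.41 and 11.48 in 16 dpc testes and 7.76, 7.96 and 7.69 in ovaries. Testes were again above ovaries without overlap. In wild-type testes, however, its difference from 12 to 16 dpc was -0.10, and 0.52 without replicate 1 of the 16 dpc testes, so its sign rested on that array. Neither value was called. The third probe set, 1439084_at, stayed at 4.79 to 5.70 on all arrays, at about the limit of low signal, and its sex differences were not called.

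Cxcr4, the receptor of Cxcl12, was low in 12 dpc gonads and higher in testes than in ovaries at 16 dpc. Its single probe set, 1448710_at, read 5.84, 5.44 and 5.41 in Wv/Wv testes and 5.56 and 5.45 in Wv/Wv ovaries at 12 dpc. In wild type it read 5.59 in the 12 dpc testis and 5.79 and 6.08 in the ovaries. These values lie close to the limit of low signal, so small differences among them carry little.

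At 14 dpc Cxcr4 read 6.38 and 7.29 in Wv/Wv testes, against 5.95, 6.26 and 5.86 in Wv/Wv ovaries. Wild-type testes read 6.44, 6.21 and 6.52, against 5.29, 5.37 and 6.10 in wild-type ovaries. The gonads did not overlap within either genotype, but neither difference was called (0.81 ± 0.31, adjusted p = 0.225, in Wv/Wv and 0.80 ± 0.28, adjusted p = 0.106, in wild type). Both were called by limma with the class term, at 0.88 (adjusted p = 0.0212) and 0.94 (adjusted p = 0.00551). In that fit 14.7% of all genes were called in Wv/Wv and 18% in wild type.

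At 16 dpc Cxcr4 read 8.14, 7.03 and 7.39 in Wv/Wv testes, against 5.57, 6.26 and 5.62 in Wv/Wv ovaries. Wild-type testes read 6.58, 6.97 and 7.19, against 5.45, 5.45 and 5.34 in wild-type ovaries. Cxcr4 was 3.25-fold higher in Wv/Wv testes (1.70 ± 0.28, limma adjusted p = 0.000177) and 2.83-fold higher in wild-type testes (1.50 ± 0.28, adjusted p = 0.000767). From 12 to 16 dpc it rose in Wv/Wv testes by 1.96 ± 0.28 (adjusted p = 4.02e-05), and the difference in wild-type testes was 1.32 ± 0.39 (adjusted p = 0.109). The wild-type difference between gonads was not called with the compared arrays alone (adjusted p = 0.0559).

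Between genotypes neither gene of the chemokine pair was called in any of the 6 comparisons (limma). The Cxcl12 differences ran from -0.53 to 0.52, with no unadjusted p below 0.05. The Cxcr4 differences ran from -0.43 to 0.60, and 1 had an unadjusted p below 0.05, that of 16 dpc testes. There Cxcr4 was 0.60 ± 0.28 higher in Wv/Wv (adjusted p = 0.667), but 0.13 among wide-spread arrays and 1.56 between the 2 narrow-spread arrays.

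**Figure D4:**
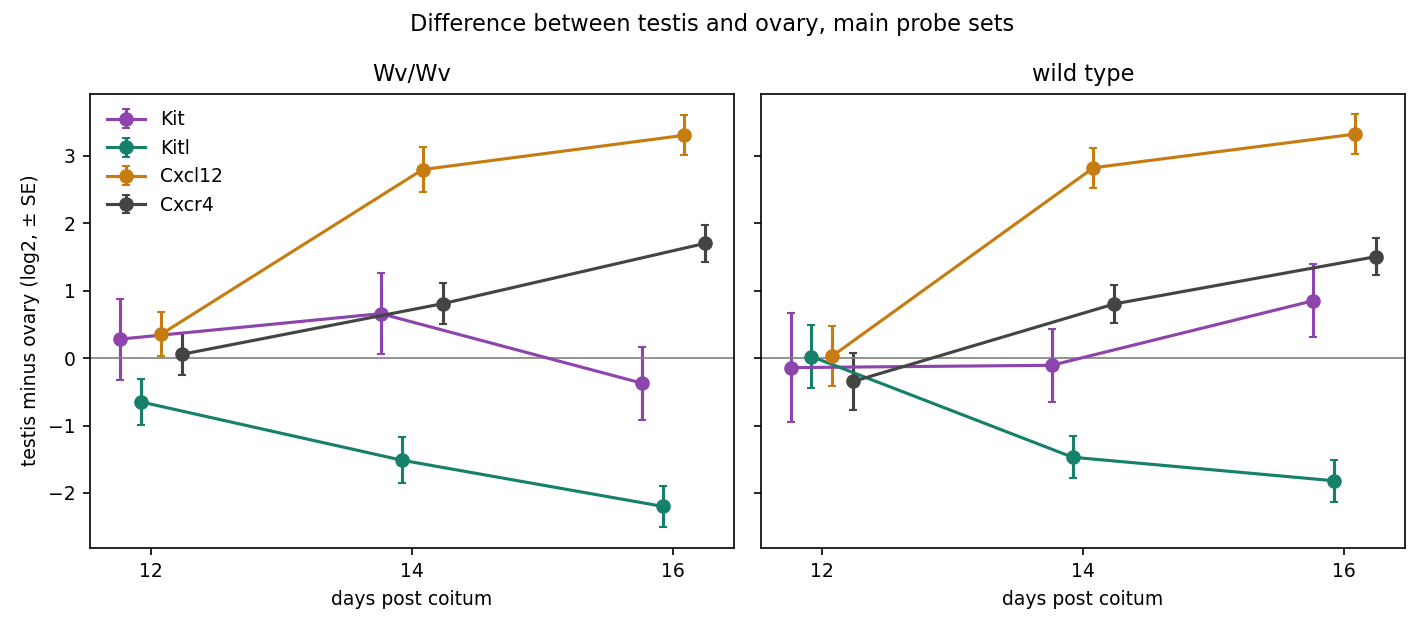
Testis minus ovary log2 difference ± SE (y axis) of the main probe sets by days post coitum (x axes), in Wv/Wv and in wild type. At 16 dpc Cxcl12 reaches 3.30 in Wv/Wv and 3.32 in wild type, and Kitl -2.20 and -1.82, while Kit stays between -0.37 and 0.85 over both genotypes.

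Kit itself was not called between testis and ovary in any of the 6 comparisons (limma), none of which had an unadjusted p below 0.05. The differences ran from -0.37 to 0.85, and among wide-spread arrays the 14 dpc wild-type difference was -0.60 ± 0.17 (adjusted p = 0.021). Whether the genotype difference itself differed between the gonads or between 12 and 16 dpc was tested for the 4 genes, without a call. In the 3 sex by genotype tests none of the 4 had an unadjusted p below 0.05 (limma, 0%, 0.275% and 0.813% of genes called at 12, 14 and 16 dpc). In the 2 age by genotype tests Kit and Cxcl12 each had 1 such p, both in ovaries, at 1.98 ± 0.85 for Kit (1.00 ± 0.35 with the class term) and 1.05 ± 0.47 for Cxcl12. Neither passed the adjustment (adjusted p = 0.741 for both, with 0.555% of genes called in ovaries and 0.066% in testes). The sex differences of Cxcl12 in Wv/Wv and in wild type differed by between -0.027 and 0.33, but that no call was made does not show that they are equal.

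Ordered by level, most neighbouring groups overlapped. Of 11 pairs of neighbouring groups, the ranges overlapped in 9 for Kit, 10 for Kitl, 9 for Cxcl12 and 11 for Cxcr4. The highest mean of Kit was that of 14 dpc wild-type ovaries (9.36 ± 0.86, SD, n = 3) and the lowest that of 16 dpc wild-type ovaries (7.31 ± 0.66, SD, n = 3), which were all narrow-spread arrays. Kitl was highest in 16 dpc Wv/Wv ovaries (13.06 ± 0.23, SD, n = 3) and lowest in 16 dpc wild-type testes (10.54 ± 0.80, SD, n = 3). Cxcl12 and Cxcr4 shared the highest group, the 16 dpc Wv/Wv testes (12.39 ± 0.12 and 7.52 ± 0.57, SD, n = 3 each). The next 3 groups were the same for both as well, namely wild-type testes at 16 dpc, Wv/Wv testes at 14 dpc and wild-type testes at 14 dpc.

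The promoters of the 3 genes that differed between gonads are printed because Cxcl12 and Cxcr4 moved one way and Kitl the other. They are RefSeq windows of 300 bases around the annotated start in GRCm38.p6, 5′ to 3′ on the gene's strand. Capitals mark matches on either strand to the letters TATAAA of a TATA box, or to those of a GC box, GGGCGG, and overlapping matches are run together. Kitl lies at chr10:100015571-100015870 (plus strand), Cxcl12 at chr6:117168285-117168584 (plus strand) and Cxcr4 at chr1:128592250-128592549 (minus strand).
Kitl: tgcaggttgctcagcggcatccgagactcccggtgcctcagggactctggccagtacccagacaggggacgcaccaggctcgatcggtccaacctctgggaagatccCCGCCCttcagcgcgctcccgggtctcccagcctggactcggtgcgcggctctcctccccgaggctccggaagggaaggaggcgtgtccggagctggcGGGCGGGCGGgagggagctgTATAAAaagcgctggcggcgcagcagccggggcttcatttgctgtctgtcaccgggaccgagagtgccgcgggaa
Cxcl12: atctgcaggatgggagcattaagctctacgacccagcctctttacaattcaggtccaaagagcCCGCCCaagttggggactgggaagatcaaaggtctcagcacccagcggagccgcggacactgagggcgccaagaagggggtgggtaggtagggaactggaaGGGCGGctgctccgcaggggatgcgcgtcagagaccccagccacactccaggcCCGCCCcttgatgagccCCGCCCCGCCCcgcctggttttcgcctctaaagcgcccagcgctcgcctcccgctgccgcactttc
Cxcr4: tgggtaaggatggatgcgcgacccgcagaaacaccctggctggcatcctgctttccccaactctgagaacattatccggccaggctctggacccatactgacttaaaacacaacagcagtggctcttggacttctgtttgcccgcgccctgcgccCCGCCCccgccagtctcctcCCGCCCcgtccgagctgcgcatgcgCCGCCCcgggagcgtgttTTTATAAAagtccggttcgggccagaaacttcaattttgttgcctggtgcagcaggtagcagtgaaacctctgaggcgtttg
Kitl held 1 TATAAA and 3 GGGCGG matches, of which a pair overlap. Cxcl12 held no TATAAA and 5 GGGCGG matches, a pair of them overlapping. Cxcr4 held 3 GGGCGG matches and 2 TATAAA matches, which are a single stretch read on both strands. Among 32851 promoters of the same length, 13.6% held TATAAA and 35.7% held GGGCGG. The core letters bound by Sox factors, AACAAT, were in none of the 3 windows, and neither were the letters of an E box, CACGTG. All promoters held them at rates of 10.7% and 7.15%. Kit, on chromosome 5, had 1 GGGCGG match in its window.

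Of 36 measured genes of Kit receptor signalling (adaptors, kinases and phosphatases), 2 fell in 14 dpc Wv/Wv ovaries, where 4.37% of all genes were called. None was called in the other 5 genotype comparisons (limma), where 0.033% to 3.74% of all genes were called and 0 to 12 of the 36 had an unadjusted p below 0.05. With the class term 7 of the 36 were called in 14 dpc ovaries and 3 in 16 dpc ovaries, where 20.6% and 16.5% of all genes were called. The 2 that fell were Pik3cb, a catalytic subunit of phosphoinositide 3-kinase (-1.72 ± 0.39, adjusted p = 0.00855), and Ptpn6, a phosphatase that acts on Kit in blood cells (-0.69 ± 0.18, adjusted p = 0.0257). The median of the 36 in 14 dpc ovaries was -0.045, beside 0.00045 over all genes. Between gonads 1 of the 36 was called: Sh2b2, an adaptor, was higher in Wv/Wv testes at 14 dpc (1.70, 3.69% of all genes called) and 16 dpc (adjusted p = 4.37e-05, 6.96% called) and in wild-type testes at 16 dpc (1.57, 9.65% called).

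Among 15 genes drawn up as regulators of Kit transcription in germ cells, mast cells or blood cells, 6 fell in Wv/Wv ovaries at 14 dpc, where 4.37% of all genes were called. The median of the 15 was -1.08, beside 0.00045 over all genes. Sohlh2, a germ cell transcription factor, fell by 3.83 ± 0.34 (adjusted p = 5.23e-08). Tfap2c, a factor of primordial germ cells that is also among the 18 measured germ cell markers, fell by 3.97 ± 0.62. Dmrt1, which is made by germ cells and Sertoli cells, fell by 3.40 ± 0.59, and the remaining 3 were Myb, Tal1 and Lmo2, factors of blood cells (-1.88, -1.76 and -0.97). Erythroid markers fell beside them: 3 of the 4 measured in 14 dpc ovaries, namely Klf1 (-2.31), Rhag (-3.21) and Slc4a1 (-2.69), and 3 in 16 dpc ovaries, Klf1 (-3.04), Rhag (-3.91) and Epor (-1.21). Their mean log2 level ranged over 5.62 to 6.15 in Wv/Wv and 7.10 to 9.16 in wild-type ovaries at 14 dpc, and over 5.97 to 6.16 and 7.92 to 9.46 at 16 dpc. The part of blood cells in these differences was not tested. At 16 dpc 3 of the 15 regulators fell in Wv/Wv ovaries (3.74% of all genes called), Sohlh2 (-2.79), Tal1 (-1.86) and Lmo2 (-1.30). In Wv/Wv testes Sohlh2 (-2.72) and Tfap2c (-3.37) fell at 14 dpc, and Sohlh1 (-1.81 ± 0.26, adjusted p = 0.000251) at 16 dpc, where 0.594% and 0.484% of all genes were called. Of the 18 germ cell markers, 17 fell in 14 dpc ovaries and 16 in 14 dpc testes, with medians of -4.09 and -4.05.

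Between gonads the same regulators moved in both directions. In 16 dpc wild-type testes Sohlh1 (1.46), Etv5 (1.88) and Dmrt1 (2.26) were higher, and Sohlh2 (-2.34), Gata1 (-1.85), Tal1 (-1.50), Lmo2 (-1.64) and Ldb1 (-1.04) lower than in ovaries, in a comparison that called 9.65% of all genes. Of the 4 erythroid markers 3 were lower there too, Klf1 (-2.22), Rhag (-2.79) and Epor (-1.04). With the class term the Ldb1 difference was -0.30 and was not called. In Wv/Wv testes of that age Dmrt1 (3.51) was the single call among the 15 (6.96% of all genes called).

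Between genotypes the genes of the Cxcl12 and Cxcr4 axis other than the pair itself were mostly not called. Of 22 measured, none was called in 4 of the 6 genotype comparisons, where 0.033% to 0.594% of all genes were called. In each of these 4 comparisons 0 or 1 of the 22 had an unadjusted p below 0.05 (limma). Dock2, a Rac activator of blood cells, fell in 14 dpc Wv/Wv ovaries (-0.83, adjusted p = 0.0082, 4.37% of all genes called), and Rac2, a GTPase of the same cells, in 16 dpc Wv/Wv ovaries (-1.05, adjusted p = 0.047, 3.74% called). Ackr3, a second receptor of Cxcl12 that takes it up from the surroundings, was higher in 16 dpc wild-type testes than in ovaries (2.99 ± 0.82, adjusted p = 0.0204), and its difference in Wv/Wv was 1.13 (adjusted p = 0.748). The sex by genotype difference of Ackr3 at 16 dpc was -1.86 ± 1.16 (adjusted p = 0.739). Ptk2b, a focal adhesion kinase relative, was higher in testes in all 6 comparisons of the gonads, between 1.69 and 3.66. Dock2 was lower in 16 dpc testes of both genotypes (-1.39 in Wv/Wv and -1.26 in wild type). With the class term 4 of the 22 were higher and 2 lower in 14 dpc Wv/Wv testes than in ovaries, where 14.7% of all genes were called. At 16 dpc 5 were higher and 3 lower in Wv/Wv (20.5% called). In wild type 3 were higher and 3 lower at 14 dpc (18% called), and 3 higher and 2 lower at 16 dpc (16.1% called).

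Of 22 measured genes of germ cell migration and adhesion, 2 were called with genotype in 14 dpc ovaries and 3 in 16 dpc ovaries, where 4.37% and 3.74% of all genes were called. Fgfr2, a fibroblast growth factor receptor, was higher in Wv/Wv ovaries at 14 dpc (0.78, adjusted p = 0.0371) and 16 dpc (0.93, adjusted p = 0.014). Itgav, an integrin subunit (1.15), and Wnt5a, a ligand that guides germ cells through Ror2 (1.23, adjusted p = 0.0341), were higher at 16 dpc. Dnd1, an RNA-binding protein that germ cells need and that is also among the germ cell markers, fell in 14 dpc ovaries (-2.11) and in testes at 14 dpc (-2.26) and 16 dpc (-2.28). The median of the 22 in 16 dpc ovaries was 0.50, beside 0.030 over all genes. Between gonads Ifitm1, an interferon-induced membrane protein, was lower in 16 dpc testes of both genotypes (-1.83 in Wv/Wv and -2.01 in wild type), and Wnt5a was higher (1.05 in Wv/Wv and 1.81 in wild type).

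Other cell types of the gonad stood beside the sex differences. Cyp11a1, the first enzyme of steroid synthesis in Leydig cells, ranged over 5.54 to 13.00 in Wv/Wv testes and 4.46 to 5.66 in Wv/Wv ovaries. Fst, a pregranulosa cell product, ranged over 5.65 to 7.47 in Wv/Wv testes and 10.49 to 12.01 in Wv/Wv ovaries. With the 3 ages pooled, the 2 gonads did not overlap for Fst, and the Leydig marker overlapped narrowly. At 14 dpc the mean of 4 Leydig markers ranged over 12.20 to 12.50 in Wv/Wv testes and 6.65 to 6.97 in Wv/Wv ovaries. With the class term all 4 Leydig, 5 Sertoli and 3 stroma markers were higher in Wv/Wv testes than in ovaries at 14 and 16 dpc. All 5 pregranulosa markers were lower, in comparisons that called 14.7% and 20.5% of all genes. Cdh5, vascular cadherin of endothelium, which also uses Cxcr4, ranged over 7.27 to 8.07 in Wv/Wv testes and 6.72 to 7.48 in Wv/Wv ovaries. In the fit without the class term Cdh5 alone of 6 endothelial markers was called between gonads. It was higher in wild-type testes at 14 dpc (0.76 ± 0.19, limma adjusted p = 0.0129, 5.93% of all genes called) and at 16 dpc (0.82 ± 0.19, adjusted p = 0.00521, 9.65% called). With the class term 2 of the 6 were higher in Wv/Wv testes at 14 dpc and 1 at 16 dpc, where 14.7% and 20.5% of all genes were called. In wild type 1 was higher at each of these ages (18% and 16.1% called). At 16 dpc Cdh5 read 7.30, 7.65 and 7.88 in wild-type testes, against 6.94, 6.85 and 6.59 in wild-type ovaries. In Wv/Wv at 16 dpc it read 8.07, 7.88 and 7.92 in testes, against 7.22, 7.37 and 7.48 in ovaries, without a call (0.60, adjusted p = 0.0548) until the class term was added (adjusted p = 0.00723). The mean level of the 6 ranged over 7.52 to 7.80 in 16 dpc Wv/Wv testes and 7.41 to 7.69 in Wv/Wv ovaries, and over 6.46 to 7.67 in wild-type testes and 7.06 to 7.26 in wild-type ovaries. The part of these cells in the Cxcl12, Cxcr4 and Kitl differences was not tested.

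The genes whose 12 group means followed each member most closely were ranked among 13059 genes by Pearson's r, as a description. The points share arrays, and with them array class. For Kit they were Ddx19b (r = 0.97), Herc3, Ctage5, Slc15a4 and Abl2, and after removal of the class difference Herc3 ranked 87 and Slc15a4 ranked 265. For Kitl they were Rnf213 (r = 0.98), Hadhb, Parvb, Mbnl3 and Crip3, and Rnf213 kept rank 1 after that removal. For Cxcl12 they were Tubb3 (r = 0.98), Fndc4, Lamc3, Pir and Egr1, and for Cxcr4 Fhl2 (r = 0.96), Nuak2, Cilp, Mapt and Cdhr5. Tubb3 and Fhl2 kept rank 1 after it. Other genes also fell in rank, Cilp to 98 for Cxcr4 and Egr1 to 31 for Cxcl12, while Ddx19b ranked 5 for Kit. Lists other than that of Kit thus also depended on array class, though the largest fall was that of Slc15a4 for Kit.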

How the data were processed

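RNA from whole fetal gonads was hybridised to Affymetrix 3′ expression arrays, 1 sample an array, and the authors deposited log2 signals of 45101 probe sets, made with RMA per the submitters' processing notes. Which RMA version was used, and on which arrays jointly, is not given in the labels or headers. RMA levels overall shifts between arrays, so a change in total RNA is not visible. Names came from the platform's annotation (34958 probe sets with 1 symbol, 932 with several, 9211 not listed), and gene IDs of 34754 of the first were in the mouse gene table. The probe set with the highest mean stood for each of 18194 genes. Arrays have no read depth, so their number limits the precision. Of 27 pairs of arrays within groups, none was a duplicate (smallest SD of the difference 0.21).

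Comparisons were fitted with limma 3.58.1 in R 4.3.3 (lmFit, eBayes; 1 mean per group over all 31 arrays, 19 residual degrees of freedom), with Benjamini-Hochberg adjustment over all genes within a comparison and calls below 0.05. Tables and figures used Python 3.11.15. The fit was tested on simulated data with known changes. In the genotype and sex comparisons it called 5% to 42% of log2 changes of 1 and 53% to 91% of changes of 2, with at most 12 false calls. A log2 difference near 1 without a call therefore does not show that there was no change. The simulated noise was drawn independently for each gene and array, without a difference between array classes. The number of false calls on the arrays themselves may thus differ from that of the simulation. Array classes were split by the SD over probe sets, and the class term, the wide-spread arrays alone, other probe sets, cyclic loess, housekeeping centring, removal of low signal, the compared arrays alone, a replicate block and single arrays left out were tried as alternatives. The class term was fitted without replicate 1 of the 16 dpc wild-type testes. Narrow-spread arrays alone, the fit without the array of lowest SD, the gene lists with the class term, germ cell markers raised to the limit of low signal and the sex by age test were chosen after seeing the data. Replicate numbers were not treated as pairs. Over 26 pairs of same-numbered samples, correlations of deviations from group means ran from -0.82 to 0.85. These deviations also carry array class, so they do not show whether samples were paired. Members and gene lists were chosen with earlier results of these data known. The text names the 4 genes, members of the lists that were called, fixed cell type markers, and for each of the 4 genes the 5 with the most similar group means.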

Additional observations from a re-analysis of the deposited data

Results flagged for a closer look

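The difference between testis and ovary in Cxcl12 differed between 12 and 16 dpc, in a test of that difference chosen after the values were seen. The 16 minus 12 dpc change was larger in testes than in ovaries by 2.95 ± 0.44 (SE, log2) in Wv/Wv (limma, adjusted p = 0.000679, 1.09% of genes called) and by 3.29 ± 0.53 in wild type (adjusted p = 0.00206, 0.627% called). On the second Cxcl12 probe set, 1417574_at, this test was not called in either genotype. On the main probe set it was not called in wild type with the compared arrays alone. The 16 dpc testis and ovary ranges did not overlap in either genotype, while the 12 dpc ranges overlapped in Wv/Wv. The single 12 dpc wild-type testis array lay within the range of the wild-type ovaries. In wild type the 12 dpc ovaries were all on wide-spread arrays and the 16 dpc ovaries all on narrow-spread ones, so array class changed along with age there. The same quantity was 1.64 for Cxcr4 in Wv/Wv (adjusted p = 0.0553) and 1.85 in wild type (adjusted p = 0.123), and -1.55 and -1.84 for Kitl, none of which was called.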

How the results depend on the processing

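Of 1637 alternative values, 1539 were counted as the same and 4 as reversed. A difference counted as the same where it stayed on its side of the threshold. A change of sign counted as reversed only where the main or the alternative value was called. Uncalled values that changed sign are thus among the 1539, such as Kit in 16 dpc testes without replicate 1 of the Wv/Wv testes. For the germ cell part of Kit, 73 values counted as the same because they lay within the span at 1 SE of the Kit difference. For Kit in 14 dpc ovaries the call was lost with every probe set tested (-1.87, adjusted p = 0.0538), with the arrays compared alone (adjusted p = 0.223), with a replicate block (adjusted p = 0.0705), on narrow-spread arrays (-1.43) and on probe set 1415900_a_at (-0.42), and single arrays left out gave -2.42 to -1.53. Kitl between gonads was not called on probe set 1415854_at (-2.44, -2.47 and -1.97 in Wv/Wv at 14 and 16 dpc and wild type at 14 dpc) or 1426152_a_at (-2.96, -2.19 and -2.33), nor with the compared arrays alone in Wv/Wv at 14 dpc (-1.51) and wild type at 16 dpc (-1.82). Single arrays left out gave -1.64 to -1.37 in Wv/Wv at 14 dpc, without a call when either testis array was omitted. On the low probe set 1439084_at Cxcl12 between gonads was 0.12, 0.25 and 0.031 without a call, and reversed to -0.37 in wild type at 16 dpc, as did its change over time in wild-type ovaries (0.31) and the sex by age test in wild type (-0.23). On 1417574_at the change over time in wild-type testes reversed (-0.10), and was 0.52 without replicate 1 of the 16 dpc testes. Cxcr4 between wild-type gonads at 16 dpc was not called with the compared arrays alone (1.50). At 14 dpc it gained a call with the class term (0.88 in Wv/Wv, 0.94 in wild type), on wide-spread arrays in wild type (0.65) and on narrow-spread arrays in Wv/Wv (1.23), and single arrays left out gave 0.65 to 1.06 in wild type. Kit between wild-type gonads at 14 dpc gained a call on wide-spread arrays (-0.60). On narrow-spread arrays, 1 against 1, the genotype difference in 16 dpc testes gained a call for Kitl (0.97), Cxcl12 (1.22) and Cxcr4 (1.56). Kitl in 16 dpc ovaries gained one without the array of lowest SD (0.71). The germ cell part of Kit moved to 60.1% in 14 dpc ovaries on wide-spread arrays, and in 14 dpc testes to 22.6% with the class term and 22.9% on wide-spread arrays, with 22.9% to 72.4% over single arrays left out. The causes were not tested. Counts of called genes moved by over 1.5 times in all 12 genotype and sex comparisons with the class term (22 to 3743 genes, against 6 to 1755) and in 9 with cyclic loess. In 14 dpc ovaries 600 genes were higher and 1450 lower with cyclic loess and 348 and 892 with housekeeping centring, against 53 and 742, and in 16 dpc ovaries 1291 and 1265, and 1500 and 741, against 253 and 427. Housekeeping centring moved the median of all genes to between -0.29 and 0.28 in these comparisons, and changed the split between gonads to 48.1% higher (Wv/Wv 14 dpc, against 63.0%), 42.5% (Wv/Wv 16 dpc, against 54.4%) and 72.8% (wild type 16 dpc, against 46.7%), with no genotype or sex call of the 4 genes changed.

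A fit with the replicate number as a block also ended the call of Cxcl12 from 12 to 16 dpc in wild-type testes (1.72), and no other call of the 4 genes was changed by it. Groups of 1 to 3 arrays limit the precision, and the lone 12 dpc wild-type testis was taken to vary like the others. Cxcr4 at 12 dpc and probe sets 1415900_a_at and 1439084_at lay near low signal.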
